A study of Mus musculus with 6 samples.

Results

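The genes described here are the histone lysine methyltransferases and demethylases of the mouse, taken by name as the Kmt, Nsd, Setd and Kdm genes, without Kdm5d and without names marked as pseudogenes. The rule took 40 of the 55487 genes in the expression table: 21 Kmt, Nsd and Setd names and 19 Kdm names. They were measured by RNA-seq in bone marrow cells labelled LT-HSCs, long-term haematopoietic stem cells, which are defined by their ability to sustain blood formation. There were 3 libraries of Mmrn1-high cells and 3 libraries of Mmrn1-low cells. Both groups came from mice of the genotype labelled Mmrn1-GFP type, where GFP stands for green fluorescent protein and Mmrn1 is the gene of multimerin 1, a protein of platelets and endothelium. How the GFP allele was made, the strain, age and sex of the mice, the surface gate and any pooling of animals are not given in the sources at hand. Whether replicates are separate mice or sorts is not in the labels either, so each p-value rests on the spread among the libraries alone, and that spread may be technical. In bulk RNA, fewer cells of a type and less RNA per cell cannot be told apart.

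Methyl groups on lysines of histone tails are written by enzymes with a SET domain and removed by amine oxidases of the LSD family or by oxygenases with a JmjC domain. Methylation of H3K4 marks promoters and enhancers in use, methylation of H3K36 follows transcribed gene bodies, methylation of H3K9 and H4K20 accompanies compacted chromatin, and methylation of H3K27 is the mark of Polycomb repression. In blood, MLL1, the product of Kmt2a, is required for stem cell maintenance and is the target of translocations in acute leukaemia, and LSD1, the product of Kdm1a, acts with GFI1 and GFI1B in lineage choice.

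Libraries held 11595104 to 30909990 gene counts, and 15419 genes were tested. Levels are CPM, the share of a library's gene counts on the usual per-million scale, adjusted by TMM, a factor that corrects the library total for composition, and log2 fold changes are Mmrn1-high minus Mmrn1-low. Mmrn1 had 8.82, 9.80 and 11.5 CPM in Mmrn1-high cells, against 5.65, 5.61 and 5.82 CPM in Mmrn1-low cells (log2 fold change 0.82 ± 0.12 SE, edgeR quasi-likelihood Benjamini-Hochberg adjusted p = 0.000485). Transcripts of other cell states differed widely between the groups, and of all genes tested 30.7% were higher and 30.5% lower at an edgeR adjusted p under 0.05. All 11 listed genes used to mark stem and early progenitor cells were higher in Mmrn1-high cells (summed 2300 to 2310 CPM in Mmrn1-high cells, 1060 to 1080 CPM in Mmrn1-low cells). Among them were Flt3, Cd48 and Cd34, which gates for long-term stem cells usually exclude. Cd34 and Flt3 had means of 829 and 546 CPM in Mmrn1-high cells, against 347 and 156 CPM in Mmrn1-low cells. They held much of the sum, which therefore does not measure stem cells alone. Slamf1 and Procr had means of 4.92 and 12.4 CPM in Mmrn1-high cells, against 1.54 and 4.34 CPM in Mmrn1-low cells. All 9 granulocyte progenitor genes were lower (3560 to 3630 CPM in Mmrn1-high cells, 23800 to 25100 CPM in Mmrn1-low cells), as were 18 of 18 mitotic genes (2190 to 2270 CPM in Mmrn1-high cells, 4630 to 4660 CPM in Mmrn1-low cells) and 11 of 12 tissue macrophage genes (44.8 to 45.3 CPM in Mmrn1-high cells, 255 to 259 CPM in Mmrn1-low cells). All 18 tested immediate early genes were higher (5810 to 5890 CPM in Mmrn1-high cells, 1840 to 1980 CPM in Mmrn1-low cells), as were 10 of 10 maturing neutrophil genes (4860 to 5180 CPM in Mmrn1-high cells, 2990 to 3110 CPM in Mmrn1-low cells) and 5 of 6 tested T and NK cell genes (53.3 to 56.7 CPM in Mmrn1-high cells, 15.5 to 18.4 CPM in Mmrn1-low cells). B and plasma cell genes had 5 higher and 2 lower of 10 tested (418 to 459 CPM in Mmrn1-high cells, 850 to 977 CPM in Mmrn1-low cells), and erythroid genes 1 higher and 5 lower of 10 (447 to 450 CPM in Mmrn1-high cells, 741 to 776 CPM in Mmrn1-low cells). Single genes held much of some sums. Means in Mmrn1-high and Mmrn1-low cells were 272 and 542 CPM for Igkc (B and plasma cell) and 231 and 509 CPM for Tfrc (erythroid). For Lck (T and NK cell) they were 37.5 and 10.2 CPM. These sums therefore do not measure the cell types alone. Of these lists, Egr2 alone had no count in any library. The part of these cell states in the results on the methylation genes was not tested.

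Most histone lysine methylation genes were expressed at similar levels in both groups, and a few demethylases and 1 methyltransferase moved most. Kdm6b, Kdm7a and Kmt2a rose by 1.82-fold, 1.56-fold and 1.56-fold in Mmrn1-high cells, and Kdm8, Kmt5a and Kdm5c fell by the largest amounts, with Mmrn1-high levels at 0.725, 0.750 and 0.764 of the Mmrn1-low level. Of the 37 members that passed the filter on low counts, 11 rose, 6 fell and 20 did not pass the edgeR quasi-likelihood test at a Benjamini-Hochberg adjusted p under 0.05. The members called were 45.9% of those tested, against 61.2% of all genes tested (30.7% higher and 30.5% lower) and 64.5% of the 10537 genes within the same range of expression. Only 3 members, Kdm6b, Kdm7a and Kmt2a, were called and also moved by 0.5 or more on the log2 scale, whereas 34.3% of all genes and 29.6% of genes in the expression range were. The median log2 fold change of the members was 0.08, beside 0.01 for all genes, and their median absolute log2 fold change was 0.19, beside 0.37 for all genes and 0.31 for genes in the range.

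The 3 libraries of one group lay entirely above or below those of the other for 21 of 37 members (56.8%), beside 67.8% of all genes. Of these members, 13 had the Mmrn1-high libraries above (34.1% of all genes) and 8 below (33.7% of all genes). Of 16 tested Kdm genes 7 were higher, 3 lower and 6 not called (62.5% called, near the 61.2% of all genes). Of 21 tested Kmt, Nsd and Setd genes 4 were higher, 3 lower and 14 not called (33.3% called). The difference between these shares was not tested. The split between higher and lower calls depended on the scaling. Library size alone moved the median log2 fold change of all genes up by 0.15 and gave 21 members higher and 3 lower, beside 40.2% and 20.7% of all genes, so directions given with CPM or as log2 fold changes are relative to the TMM scaling, whereas FPKM levels and sums carry no such correction. Without Mmrn1-high replicate 2, 13 members were higher and 3 lower. The calls of 12 members held in each of the 16 alternative fits: Kdm6b, Kdm7a, Kmt2a, Kmt2c, Kdm5b, Kmt5b, Kdm3a, Kdm6a and Nsd3 were higher, and Kdm8, Kmt5a and Kdm5c lower.

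**Figure D1:**
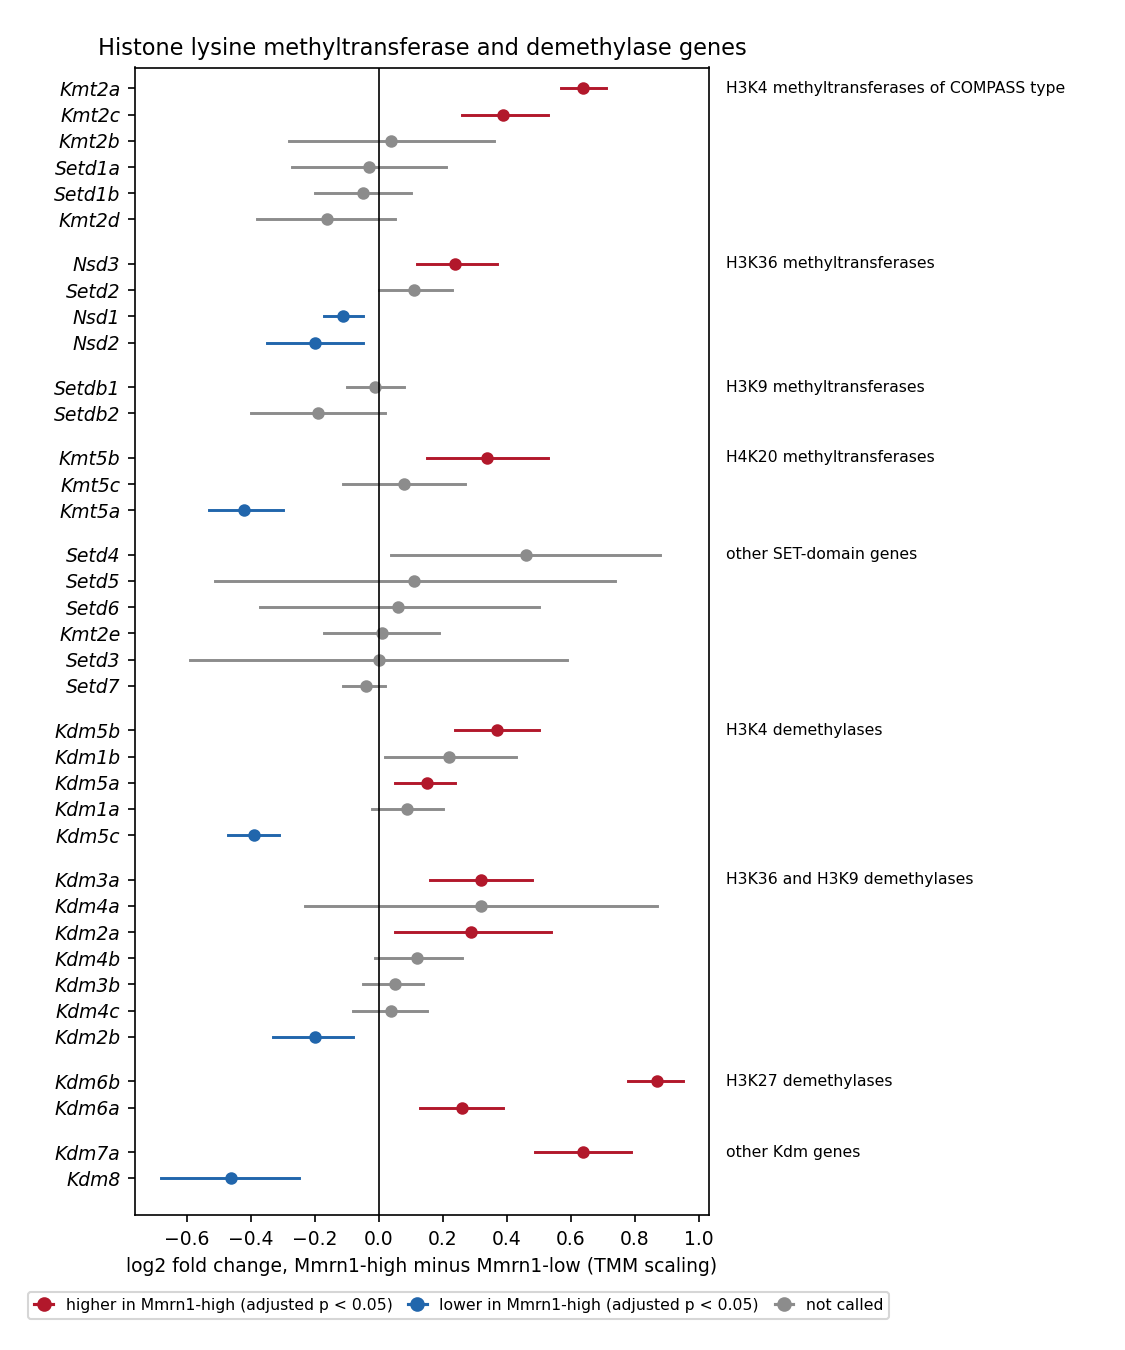
Log2 fold change (Mmrn1-high minus Mmrn1-low, TMM scaling) of the 37 tested members, grouped by the histone lysine they act on; points are edgeR estimates, lines their 95% intervals, red marks higher and blue lower calls. Kdm6b at 0.87 lies farthest to the right, Kdm8 at -0.46 farthest to the left among called genes, and several SET-domain genes have intervals reaching beyond 0.5 on either side.

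The start regions of some members that moved are given as examples. RefSeq promoter windows on build GRCm38.p6 existed for 27 of the 40 members, and the 250 bases before the annotated start site were read. Kmt2a (chr9:44881290-44881539, minus strand) and Kdm7a (chr6:39206774-39207023, minus strand) are shown from the 7 members that rose and had a window. Kmt5a (chr5:124439680-124439929, plus strand) and Kdm8 (chr7:125444370-125444619, plus strand) are shown from the 4 that fell and had one. Kdm6b had no window. Sequences run 5′ to 3′ on the strand of the gene, and capitals mark the letters CCAAT on either strand, the core of the box bound by NF-Y.
Kmt2a: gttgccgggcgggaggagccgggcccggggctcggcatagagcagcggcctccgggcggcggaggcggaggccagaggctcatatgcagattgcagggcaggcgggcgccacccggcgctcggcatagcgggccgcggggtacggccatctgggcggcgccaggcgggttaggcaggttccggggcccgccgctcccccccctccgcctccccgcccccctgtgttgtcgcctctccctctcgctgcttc
Kdm7a: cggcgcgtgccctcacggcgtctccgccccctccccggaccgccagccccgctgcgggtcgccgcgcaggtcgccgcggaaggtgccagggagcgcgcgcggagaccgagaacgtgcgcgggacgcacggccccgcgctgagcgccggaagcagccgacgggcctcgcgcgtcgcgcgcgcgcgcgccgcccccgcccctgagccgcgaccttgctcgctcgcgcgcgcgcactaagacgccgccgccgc
Kmt5a: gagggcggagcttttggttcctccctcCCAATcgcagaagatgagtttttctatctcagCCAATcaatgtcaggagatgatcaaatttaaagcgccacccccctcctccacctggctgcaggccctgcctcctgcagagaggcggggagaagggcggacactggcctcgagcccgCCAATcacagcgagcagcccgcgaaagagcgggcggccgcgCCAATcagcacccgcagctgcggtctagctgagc
Kdm8: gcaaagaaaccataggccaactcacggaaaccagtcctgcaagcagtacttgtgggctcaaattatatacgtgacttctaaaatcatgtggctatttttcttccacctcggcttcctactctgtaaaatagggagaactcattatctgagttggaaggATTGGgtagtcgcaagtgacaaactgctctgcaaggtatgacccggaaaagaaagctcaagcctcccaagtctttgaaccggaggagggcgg

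The Kmt2a and Kdm7a windows were rich in G and C, at 76.8% and 82.0%, held 29 and 56 CpG dinucleotides and had no CCAAT. The Kmt5a window held 16 CpG and 4 copies of CCAAT, all on the gene's strand. That CCAAT number was the highest among the 27 member windows and was reached by 0.835% of the 32817 windows of the table. The Kdm8 window held 7 CpG and 1 CCAAT, read on the opposite strand as ATTGG. Over members with a window, CCAAT was present for 1 of 7 that rose, for 3 of 4 that fell and for 7 of 15 that were not called, and it was present in 33.8% of all windows. The median CpG number was 20 in member windows, beside 6 in all windows. Each member was read from the single window nearest its deposited gene start, whereas all windows of distinct position were kept for the comparison. These sets were not chosen alike, so shares and medians of all windows are a rough comparison only. By call the median CpG number was 20 for members that rose, 13 for those that fell and 21 for those not called. The Kmt2a and Kdm7a windows are thus richer in CpG than the median member that rose, and the examples do not represent their groups. The other letters searched on both strands were CCGGAAGT of the ETS family, found in 1 member window (2.88% of all windows), TGANTCA of AP-1, found in 2 (6.75%), and the CArG-like pattern of CC and GG around any 6 bases, found in 24 (67.1%). No member window held CGCATGCG of NRF1 (1.54% of all windows), AAGATGGC of YY1 (1.56%), TGACGTCA of CRE factors (1.55%) or GGACTTTCC of NF-kappaB (0.283%). A match describes letters in these windows, not a bound site, and annotated start sites need not be those used in these cells.

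Among the H3K4 methyltransferases of the COMPASS type, 2 of 6 rose and none fell, beside 30.7% of all genes higher and 30.5% lower. Kmt2a, which encodes MLL1 (chromosome 9, 44803355 to 44881296, minus strand), had 196, 195 and 200 CPM in Mmrn1-high cells, against 129, 126 and 126 CPM in Mmrn1-low cells. Its log2 fold change was 0.64 ± 0.03 SE (95% interval 0.57 to 0.71, edgeR quasi-likelihood Benjamini-Hochberg adjusted p = 7.26e-07). The lowest Mmrn1-high library lay far above the highest Mmrn1-low library, and the spread within each group was small. Kmt2c, whose product MLL3 acts at enhancers, rose to 96.6, 111 and 108 CPM in Mmrn1-high cells, against 78.4, 82.8 and 79.2 CPM in Mmrn1-low cells (0.39 ± 0.06 SE, edgeR adjusted p = 0.000462). Its close relative Kmt2d, the gene of MLL4, did not pass, with 249, 255 and 204 CPM in Mmrn1-high cells and 275, 257 and 260 CPM in Mmrn1-low cells (-0.16 ± 0.09 SE, 95% interval -0.38 to 0.05), all Mmrn1-high libraries being the lower ones. Kmt2b, the gene of MLL2, had 123, 96.1 and 117 CPM in Mmrn1-high cells and 109, 95.5 and 122 CPM in Mmrn1-low cells (0.04 ± 0.13 SE, 95% interval -0.28 to 0.36). Setd1a and Setd1b, the catalytic subunits of the general H3K4 complexes, overlapped between the groups. Setd1a had 109, 123 and 132 CPM in Mmrn1-high cells and 127, 136 and 110 CPM in Mmrn1-low cells (95% interval -0.27 to 0.21), and 52.3% of its exon bases are shared with other annotated genes. Setd1b had 96.1, 87.4 and 99.6 CPM in Mmrn1-high cells and 104, 91.3 and 97.2 CPM in Mmrn1-low cells (95% interval -0.20 to 0.10).

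The H3K4 demethylases split, with Kdm5a and Kdm5b higher and Kdm5c lower. Kdm5c, an X-linked gene (152233020 to 152274535, plus strand) known to escape X inactivation, had 139, 139 and 143 CPM in Mmrn1-high cells, against 190, 177 and 184 CPM in Mmrn1-low cells (-0.39 ± 0.04 SE, 95% interval -0.47 to -0.31, edgeR quasi-likelihood Benjamini-Hochberg adjusted p = 3.31e-05). No library of one group reached the range of the other. Kdm5b, whose product JARID1B removes the same mark, had 75.6, 73.3 and 67.9 CPM in Mmrn1-high cells, against 58.8, 54.1 and 55.2 CPM in Mmrn1-low cells (0.37 ± 0.06 SE, edgeR adjusted p = 0.000668). Kdm5a, which encodes an RB-binding member of the family, rose slightly, with 126, 129 and 133 CPM in Mmrn1-high cells, against 114, 122 and 114 CPM in Mmrn1-low cells (0.15 ± 0.04 SE, edgeR adjusted p = 0.015). That call was lost without Mmrn1-high replicate 3 (edgeR adjusted p = 0.0549) and with DESeq2 (adjusted p = 0.0555). The LSD-type enzymes did not pass, but the outcome depended on the setting: Kdm1a was called higher in 6 and Kdm1b in 8 of the 16 alternative fits. Kdm1a, the gene of LSD1, had 114, 106 and 115 CPM in Mmrn1-high cells and 108, 99.9 and 107 CPM in Mmrn1-low cells (0.09 ± 0.05 SE, 95% interval -0.02 to 0.20). Its paralogue Kdm1b had 27, 23.1 and 24.0 CPM in Mmrn1-high cells and 22.8, 19.4 and 20.9 CPM in Mmrn1-low cells (0.22 ± 0.09 SE, edgeR adjusted p = 0.0558), with every Mmrn1-high library above every Mmrn1-low library.

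Both H3K27 demethylases of the Kdm6 family rose. Kdm6b, the gene of JMJD3 (chromosome 11, 69398508 to 69413675, minus strand), an enzyme known to be induced by inflammatory and mitogenic signals, had the largest fold change of the members. It had 101, 104 and 103 CPM in Mmrn1-high cells, against 56.1, 57.2 and 55.6 CPM in Mmrn1-low cells (0.87 ± 0.04 SE, 95% interval 0.78 to 0.95, edgeR quasi-likelihood Benjamini-Hochberg adjusted p = 4.97e-07). The libraries of each group lay within a few CPM of each other. The 18 tested immediate early genes were all higher in Mmrn1-high cells. Among them, Fos had 927, 935 and 939 CPM in Mmrn1-high cells and 217, 203 and 215 CPM in Mmrn1-low cells. The part of these genes in the rise of Kdm6b was not tested. Kdm6a, the X-linked gene of UTX, which also escapes X inactivation, had 52.5, 54.0 and 58.6 CPM in Mmrn1-high cells, against 46.6, 46.9 and 44.5 CPM in Mmrn1-low cells (0.26 ± 0.06 SE, edgeR adjusted p = 0.00445). The X-linked Kdm5c and Kdm6a thus moved in opposite directions. Xist, the RNA that silences an X chromosome, had 646, 634 and 624 CPM in Mmrn1-high cells and 367, 370 and 367 CPM in Mmrn1-low cells. The Y-linked Uty, a homologue of Kdm6a, had 4.17, 4.10 and 6.23 CPM in Mmrn1-high cells and 6.60, 6.49 and 6.69 CPM in Mmrn1-low cells. Transcripts of Xist and of Y-linked genes were thus counted in all 6 libraries. Of 6 tested X dosage and Y genes, 1 (Xist) was higher and 3 (Ddx3x, Eif2s3y and Uty) were lower. Of all genes tested, 30.7% were higher and 30.5% lower. The part of these transcripts in the changes of Kdm5c and Kdm6a was not tested.

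Of the remaining demethylase genes with roles of their own, Kdm7a rose and Kdm8 fell. Kdm7a (chromosome 6, 39136623 to 39206789, minus strand) encodes a plant homeodomain and JmjC protein that demethylates H3K9 and H3K27. It had 66.9, 68.8 and 66.3 CPM in Mmrn1-high cells, against 39.5, 46.6 and 43.4 CPM in Mmrn1-low cells (0.64 ± 0.06 SE, 95% interval 0.49 to 0.79, edgeR quasi-likelihood Benjamini-Hochberg adjusted p = 5.89e-05). The Mmrn1-high libraries were close together and all above the more scattered Mmrn1-low libraries. Kdm8 (chromosome 7, 125444676 to 125462269, plus strand), the gene of the JmjC protein JMJD5, had 14.3, 13.1 and 15.7 CPM in Mmrn1-high cells, against 21.1, 19.6 and 18.7 CPM in Mmrn1-low cells (-0.46 ± 0.09 SE, 95% interval -0.68 to -0.25, edgeR adjusted p = 0.00281). The groups did not overlap.

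Writers of H4K20 methylation moved in different directions. Kmt5a (chromosome 5, 124439930 to 124462308, plus strand) encodes the monomethyltransferase PR-Set7, whose protein level is known to change through the cell cycle. It fell to 162, 153 and 146 CPM in Mmrn1-high cells, against 196, 202 and 216 CPM in Mmrn1-low cells (-0.42 ± 0.05 SE, 95% interval -0.53 to -0.30, edgeR quasi-likelihood Benjamini-Hochberg adjusted p = 0.000149). The highest Mmrn1-high library stayed below the lowest Mmrn1-low library. Mitotic transcripts were lower in the same libraries, with Mki67 at 373, 388 and 372 CPM in Mmrn1-high cells and 693, 682 and 709 CPM in Mmrn1-low cells, and their part in the change of Kmt5a was not tested. Kmt5b, whose product adds further methyl groups to the same lysine, rose to 68.4, 74.8 and 75.6 CPM in Mmrn1-high cells, against 63.6, 58.4 and 51.2 CPM in Mmrn1-low cells (0.34 ± 0.08 SE, edgeR adjusted p = 0.00763). Kmt5c, its paralogue, did not pass, with 52.9, 62.3 and 49.9 CPM in Mmrn1-high cells and 54.2, 51.6 and 50.6 CPM in Mmrn1-low cells (0.08 ± 0.08 SE, 95% interval -0.11 to 0.27).

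**Figure D2:**
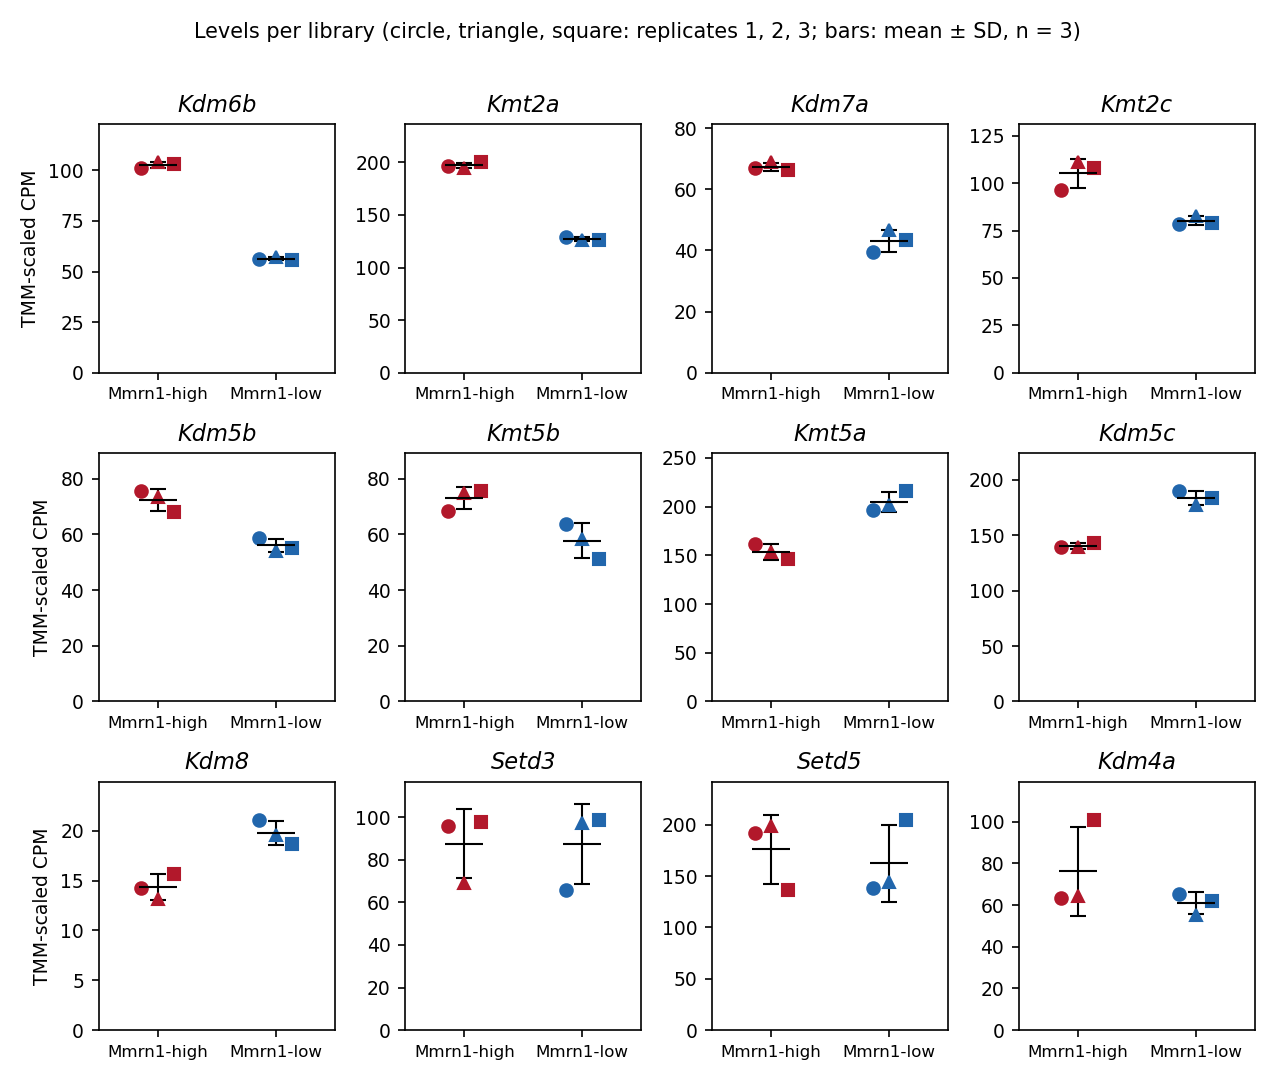
TMM-scaled CPM (vertical axis, from 0) of 12 members in each Mmrn1-high and Mmrn1-low library; symbols mark the replicate and bars the mean ± SD of 3 libraries. For Kdm6b and Kmt2a the groups are far apart and tight, for Kmt5a, Kdm5c and Kdm8 the Mmrn1-high libraries lie below, and for Setd3, Setd5 and Kdm4a single libraries stand apart within a group.

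Changes among the H3K36 methyltransferases were small. Nsd3, which is fused to another gene in some human leukaemias, rose to 107, 106 and 108 CPM in Mmrn1-high cells, against 85.3, 87.5 and 97.7 CPM in Mmrn1-low cells (0.24 ± 0.05 SE, edgeR quasi-likelihood Benjamini-Hochberg adjusted p = 0.00463). Nsd2 had 143, 130 and 135 CPM in Mmrn1-high cells, against 151, 171 and 147 CPM in Mmrn1-low cells (-0.20 ± 0.06 SE, edgeR adjusted p = 0.0284). The Nsd2 call was lost without Mmrn1-high replicate 2 (0.121) or 3 (0.0780) and without Mmrn1-low replicate 1 (0.0514) or 2 (0.0633), all edgeR adjusted p, and with library size alone (0.540). Nsd1 had 237, 235 and 238 CPM in Mmrn1-high cells, against 255, 253 and 259 CPM in Mmrn1-low cells. It was lower by a log2 fold change of -0.11 ± 0.03 SE (edgeR adjusted p = 0.00672), not called without Mmrn1-high replicate 2 (edgeR adjusted p = 0.0527), and on the other side of 0 with library size alone (0.039). Setd2, whose product trimethylates H3K36 behind RNA polymerase II, did not pass, with 125, 138 and 136 CPM in Mmrn1-high cells and 118, 123 and 128 CPM in Mmrn1-low cells (0.11 ± 0.05 SE, edgeR adjusted p = 0.0791), and was called higher in 7 of the 16 alternative fits.

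Demethylases of H3K36 and H3K9, apart from Kdm7a, had 2 of 7 tested genes higher and 1 lower, beside 30.7% of all genes higher and 30.5% lower. Kdm3a, the gene of an H3K9 demethylase known to be induced by hypoxia, rose to 56.5, 59.6 and 59.4 CPM in Mmrn1-high cells, against 48.3, 50.5 and 42.3 CPM in Mmrn1-low cells (0.32 ± 0.07 SE, edgeR quasi-likelihood Benjamini-Hochberg adjusted p = 0.00474). The H3K36 demethylases Kdm2a and Kdm2b, which bind unmethylated CpG islands, moved apart, though neither call was firm. Kdm2a had 114, 122 and 119 CPM in Mmrn1-high cells, against 104, 80.9 and 104 CPM in Mmrn1-low cells (0.29 ± 0.10 SE, edgeR adjusted p = 0.0433). Its call was lost when Mmrn1-low replicate 1 (0.0539) or Mmrn1-high replicate 1 (0.0683), 2 (0.107) or 3 (0.116) was left out, all edgeR adjusted p. Kdm2b had 102, 97.8 and 97.8 CPM in Mmrn1-high cells, against 124, 109 and 110 CPM in Mmrn1-low cells (-0.20 ± 0.05 SE, edgeR adjusted p = 0.0117). That call was lost without Mmrn1-high replicate 2 (edgeR adjusted p = 0.0501) and with library size alone (0.410). Kdm3b did not pass, with 177, 195 and 192 CPM in Mmrn1-high cells and 178, 183 and 186 CPM in Mmrn1-low cells (95% interval -0.05 to 0.14). Enzymes of the Kdm4 family act on both H3K9 and H3K36, and none of those tested passed. Kdm4b had 35.0, 35.5 and 38.6 CPM in Mmrn1-high cells and 33.6, 33.7 and 33.1 CPM in Mmrn1-low cells (0.12 ± 0.06 SE, 95% interval -0.01 to 0.26), the Mmrn1-high libraries being the higher ones. Kdm4c had 37.9, 37.4 and 38.8 CPM in Mmrn1-high cells and 37.6, 36.6 and 36.9 CPM in Mmrn1-low cells (95% interval -0.08 to 0.15). Kdm4a had 63.2, 64.4 and 101 CPM in Mmrn1-high cells and 65.4, 55.3 and 62.2 CPM in Mmrn1-low cells (0.32 ± 0.21 SE, 95% interval -0.23 to 0.87), and Mmrn1-high replicate 3 alone stood apart. Neither H3K9 methyltransferase passed. Setdb1, which acts with Trim28 in silencing retroelements, had 98.7, 97.5 and 94.5 CPM in Mmrn1-high cells and 97.4, 94.7 and 101 CPM in Mmrn1-low cells, and its interval was narrow (-0.10 to 0.08). Setdb2 had 15.5, 17.3 and 15.1 CPM in Mmrn1-high cells and 18.9, 16.5 and 19.3 CPM in Mmrn1-low cells (-0.19 ± 0.09 SE, 95% interval -0.40 to 0.02).

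None of the 6 other SET-domain genes passed. Setd7, which methylates H3K4 and several proteins that are not histones, had 173, 175 and 180 CPM in Mmrn1-high cells and 183, 180 and 181 CPM in Mmrn1-low cells (-0.04 ± 0.03 SE, 95% interval -0.11 to 0.02). Kmt2e, the gene of MLL5, which has no clear methyltransferase activity, had 146, 119 and 143 CPM in Mmrn1-high cells and 134, 138 and 133 CPM in Mmrn1-low cells (95% interval -0.17 to 0.19). Setd3, the gene of an actin histidine methyltransferase, had 95.8, 69.0 and 97.9 CPM in Mmrn1-high cells and 65.8, 97.3 and 98.8 CPM in Mmrn1-low cells (95% interval -0.59 to 0.59). Setd5 had 192, 199 and 137 CPM in Mmrn1-high cells and 138, 144 and 205 CPM in Mmrn1-low cells (0.11 ± 0.23 SE, 95% interval -0.51 to 0.74). In both genes 1 library of each group stood apart from the rest of its group. Setd6, the gene of a methyltransferase of the NF-kappaB subunit RelA, had 12.3, 17.0 and 10.9 CPM in Mmrn1-high cells and 11.2, 12.9 and 14.6 CPM in Mmrn1-low cells (95% interval -0.37 to 0.50). Setd4 had 5.64, 5.98 and 7.97 CPM in Mmrn1-high cells and 4.70, 5.68 and 4.01 CPM in Mmrn1-low cells (0.46 ± 0.18 SE, 95% interval 0.04 to 0.88, edgeR adjusted p = 0.0558), and 6 of the 14 alternative fits that tested it called it higher. A ratio of the highest to the lowest library above 1.4 within a group occurred in 5 tested members, namely Setd3, Setd4, Setd5, Setd6 and Kdm4a (13.5%), beside 12.6% of the 10537 genes in the expression range, and its cause was not tested.

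Of the 20 members not called, 15 had a 95% interval of the log2 fold change within 0.5 of 0 and 5 had one reaching farther, the lowest bound being -0.59 and the highest 0.88. The 3 members that were not tested had almost no counts. Kdm4d had 0, 0 and 0 counts in Mmrn1-high cells and 1, 2 and 2 counts in Mmrn1-low cells. The pseudogene Kdm4dl and the antisense RNA Kdm6bos each had 2 counts in 1 library of each group. Of the 40 members, 38 are protein coding, and 16 share exon bases with another annotated gene, in most cases on the opposite strand. The shared part was 4.1% for Kdm6b, 2.9% for Kdm7a, 2.3% for Kmt2a, 1.4% for Kmt2c, 6.3% for Kmt5b, 8.7% for Kdm2b, 9.2% for Kdm1b, 9.3% for Kmt2e and 24.6% for Kdm3b. Because the strand setting of the counting is not stated, reads on shared bases may belong to either gene.

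Compared per length, Kmt5a had the highest level of the members in both groups and Setd4 the lowest. The order depends on the transcript lengths behind the authors' values, which were not checked. The authors' FPKM (fragments scaled by transcript length and library size, with no correction for composition) of Kmt5a were 17.3, 16.3 and 15.5 in Mmrn1-high cells and 18.8, 19.4 and 20.8 in Mmrn1-low cells. Setd7 came next at 16.0, 16.1 and 16.5 FPKM in Mmrn1-high cells and 15.1, 14.9 and 15.1 FPKM in Mmrn1-low cells, followed by Setd1a at 14.4, 16.1 and 17.2 FPKM in Mmrn1-high cells and 15.0, 16.0 and 13.1 FPKM in Mmrn1-low cells. The libraries of these 3 genes overlapped in Mmrn1-high cells, so their order there is within the spread, whereas Kmt5a stood above both others in every Mmrn1-low library. Setd4 had 0.558, 0.588 and 0.783 FPKM in Mmrn1-high cells and 0.416, 0.505 and 0.357 FPKM in Mmrn1-low cells, far below the next gene, Kmt5b, at 2.53 ± 0.128 FPKM in Mmrn1-high cells and 1.81 ± 0.191 FPKM in Mmrn1-low cells (SD, n = 3). Kdm6b took rank 5 of 37 in Mmrn1-high cells at 14.8 ± 0.193 FPKM and rank 13 in Mmrn1-low cells at 7.35 ± 0.0997 FPKM. Kmt2a took rank 11 in Mmrn1-high cells at 10.2 ± 0.118 FPKM and rank 18 in Mmrn1-low cells at 5.94 ± 0.0717 FPKM. The median level of the tested members was 6.36 FPKM in Mmrn1-high cells and 5.79 FPKM in Mmrn1-low cells, beside 4.80 FPKM in Mmrn1-high cells and 4.36 FPKM in Mmrn1-low cells for all tested genes.

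**Figure D3:**
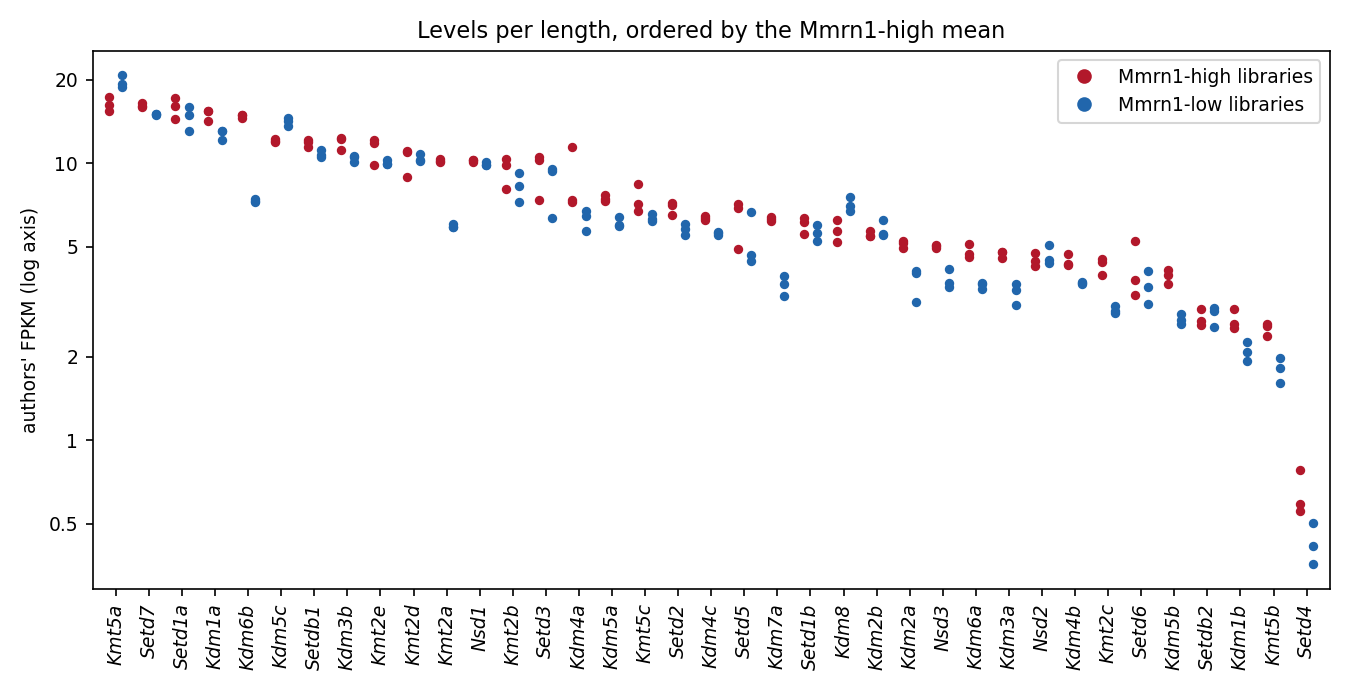
The authors' FPKM (log axis) of the 37 tested members in each library, ordered by the Mmrn1-high mean, with Mmrn1-high libraries in red left of Mmrn1-low libraries in blue. Kmt5a, Setd7 and Setd1a lead, Setd4 lies below 1 FPKM, and the gaps between red and blue are widest for Kdm6b, Kmt2a and Kdm7a.

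Shares within a family do not depend on the scaling of the library and describe which paralogue supplied the transcripts. They do depend on the transcript lengths behind the authors' FPKM, which were not checked. Kmt2a made up 18.2%, 18.3% and 18.2% of the summed FPKM of the 6 Kmt2 and Setd1 genes in Mmrn1-high cells, against 12.3%, 12.3% and 12.5% in Mmrn1-low cells. Setd1a had the largest share in both groups, at 28.2% ± 2.33 in Mmrn1-high cells and 30.7% ± 2.94 in Mmrn1-low cells (SD, n = 3), and its libraries overlapped. Kdm6b supplied 75.5% ± 0.944 of Kdm6 transcripts in Mmrn1-high cells and 67.0% ± 0.426 in Mmrn1-low cells, a ratio of Kdm6b to Kdm6a of 3.09 ± 0.154 in Mmrn1-high cells and 2.03 ± 0.0392 in Mmrn1-low cells. The Kdm6 sum was 19.6 ± 0.379 FPKM in Mmrn1-high cells and 11.0 ± 0.183 FPKM in Mmrn1-low cells. In the Kdm5 family the sum was nearly the same, at 23.4 ± 0.121 FPKM in Mmrn1-high cells and 23.0 ± 0.38 FPKM in Mmrn1-low cells, but its makeup differed. Kdm5c made up 51.3% ± 0.458 in Mmrn1-high cells and 61.5% ± 1.22 in Mmrn1-low cells, Kdm5b 16.7% ± 1.01 in Mmrn1-high cells and 11.9% ± 0.304 in Mmrn1-low cells, and Kdm5a 32.0% ± 0.635 in Mmrn1-high cells and 26.6% ± 1.47 in Mmrn1-low cells. The ratio of Kdm5b to Kdm5c was 0.326 ± 0.0223 in Mmrn1-high cells and 0.193 ± 0.00308 in Mmrn1-low cells. Among Kmt5 genes, Kmt5a made up 62.2% ± 2.34 in Mmrn1-high cells and 70.7% ± 2.03 in Mmrn1-low cells, Kmt5b 9.63% ± 0.832 in Mmrn1-high cells and 6.50% ± 0.824 in Mmrn1-low cells, and Kmt5c 28.2% ± 2.25 in Mmrn1-high cells and 22.8% ± 1.21 in Mmrn1-low cells. In the shares given here, the libraries of the groups did not overlap except for Setd1a. With 3 libraries a group, an exact permutation test could not go below 0.10, so no p is given for shares.

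**Figure D4:**
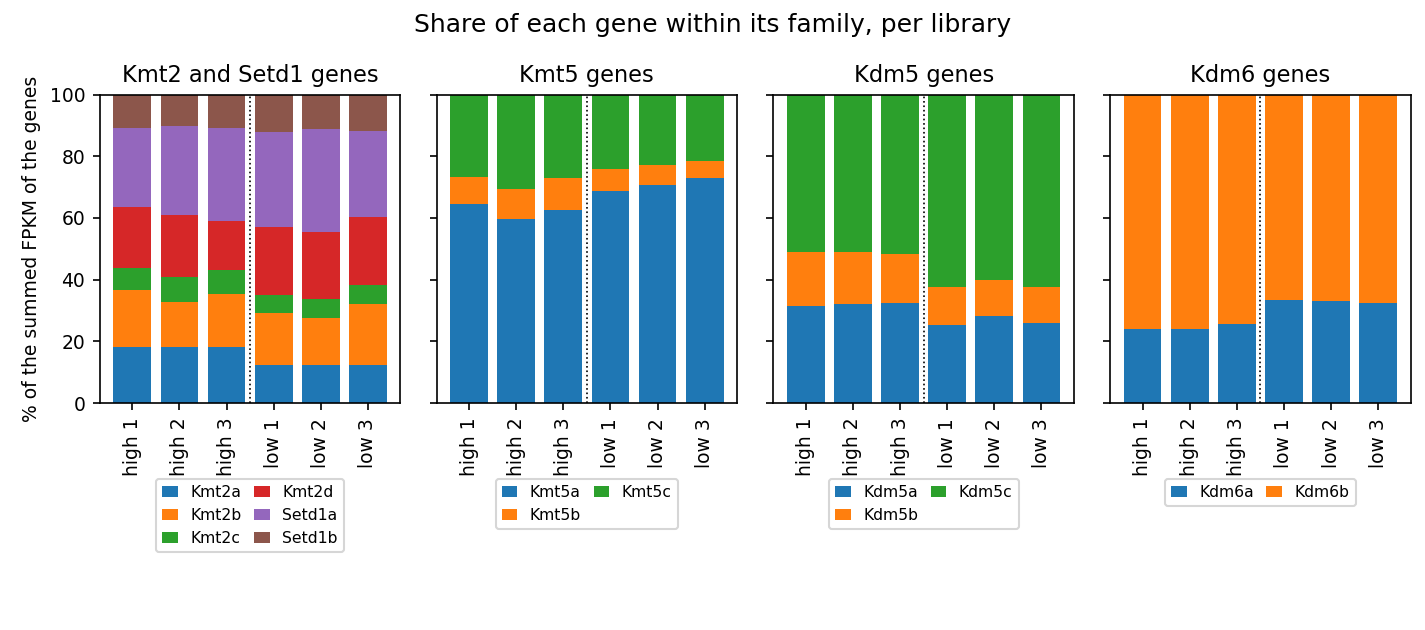
Share of each gene in the summed FPKM of its family (% on the vertical axis) per library, with Mmrn1-high libraries left and Mmrn1-low libraries right of the dotted line. Kmt2a and Kdm6b take larger shares, and Kdm5c and Kmt5a smaller ones, in each of the 3 Mmrn1-high libraries than in any Mmrn1-low library.

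Other genes of the same machinery were read from lists of partners, all in the same edgeR quasi-likelihood fit. The counts of calls in these lists stand beside 30.7% of all genes tested higher and 30.5% lower. Of 17 tested histone lysine methyltransferases outside the names above, 7 were higher and 3 lower (median log2 fold change 0.18), and with library size alone 11 were higher and 1 lower. Mecom (1.51 ± 0.11 SE) and Prdm16 (1.29 ± 0.10 SE), PR-domain regulators of stem cells, and Ash1l, an H3K36 enzyme (0.41 ± 0.04 SE), were higher, and Suv39h1, an H3K9 enzyme, lower (-0.39 ± 0.03 SE). Ezh2 and Ezh1, the H3K27 writers of Polycomb, had log2 fold changes of 0.01 ± 0.04 SE (not called) and 0.39 ± 0.06 SE (higher). Of 14 other JmjC genes 1, Jmjd7, was higher (0.51 ± 0.12 SE) and 4 lower, including Jarid2, a Polycomb cofactor, at -0.72 ± 0.04 SE, Riox1 (-0.35 ± 0.05 SE), Jmjd6 (-0.28 ± 0.07 SE) and the scarce Hr. Their median was -0.08, and library size alone gave 4 higher.

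Partners of the H3K4 complexes split. Of 17 COMPASS and MLL partners 3 were higher and 7 lower (median -0.19), beside 30.7% of all genes higher and 30.5% lower, so the list was called about as often as all genes. Hcfc1 (-0.38 ± 0.03 SE), Dpy30 (-0.68 ± 0.06 SE) and Wdr5 (-0.26 ± 0.03 SE), shared subunits, were lower, and Psip1, the gene of the chromatin tether LEDGF of MLL1, was higher (0.39 ± 0.04 SE). Wdr82 and Ogt were the other 2 higher genes. The list had 5 higher and 4 lower with library size alone, and 4 lower without Mmrn1-high replicate 1. Of 12 genes known as targets of MLL1 in blood cells 9 were higher and 1 lower (median 0.88). Meis1, a homeobox partner of the HOXA proteins, had 106, 106 and 109 CPM in Mmrn1-high cells, against 33.9, 30.0 and 35.7 CPM in Mmrn1-low cells (1.68 ± 0.07 SE). Hoxa9 had 61.3, 61.8 and 63.8 CPM in Mmrn1-high cells, against 35.1, 35.5 and 36.3 CPM in Mmrn1-low cells (0.81 ± 0.05 SE), and Hoxa5 was higher by 1.45 ± 0.11 SE. Mecom belongs to this list, to the methyltransferases and to the stem and early progenitor genes above, and several of these targets mark stem cells by themselves.

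The partners of LSD1 and CoREST had 8 higher and 3 lower genes of 14, with a median of 0.22, while Kdm1a itself was not called. Of all genes tested, 30.7% were higher and 30.5% lower. Gfi1 encodes a transcriptional repressor that acts in granulocyte differentiation and recruits LSD1. Gfi1 had 56.5, 61.0 and 56.2 CPM in Mmrn1-high cells, against 249, 237 and 236 CPM in Mmrn1-low cells (-2.05 ± 0.04 SE). Its paralogue Gfi1b, which acts in the megakaryocyte and erythroid lineages, was higher (1.02 ± 0.11 SE). Of the CoREST scaffolds, Rcor1 was lower (-0.44 ± 0.03 SE) and Rcor2 higher (1.53 ± 0.11 SE), and Glyr1, a cofactor of Kdm1b, was lower (-0.45 ± 0.03 SE). Gfi1 is also one of the 9 granulocyte progenitor genes that were lower. Readers of histone methylation had 9 higher and 4 lower genes of 20, with a median of 0.16, so this list was called about as often as all genes. Cbx5, the gene of HP1 alpha (-0.38 ± 0.03 SE), and L3mbtl2 (-0.59 ± 0.06 SE) were lower, and Ing4 (0.56 ± 0.06 SE) and Atf7ip, a Setdb1 cofactor (0.40 ± 0.05 SE), higher.

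Enzymes that supply the methyl donor or the 2-oxoglutarate used by JmjC demethylases were mostly lower, at 12 lower and 2 higher of 19 tested, with a median of -0.18. Idh1, which makes 2-oxoglutarate in the cytosol, had 66.7, 67.2 and 64.0 CPM in Mmrn1-high cells, against 171, 160 and 171 CPM in Mmrn1-low cells (-1.34 ± 0.04 SE). Mat2b, the regulatory subunit of S-adenosylmethionine synthase (-0.60 ± 0.03 SE), and Idh3a (-0.43 ± 0.03 SE) were lower as well. So was Ogdh, which consumes 2-oxoglutarate (-0.38 ± 0.03 SE), and D2hgdh was higher. Library size alone gave 7 lower and 4 higher. The part of the mix of cells in these counts was not tested.

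**Figure D5:**
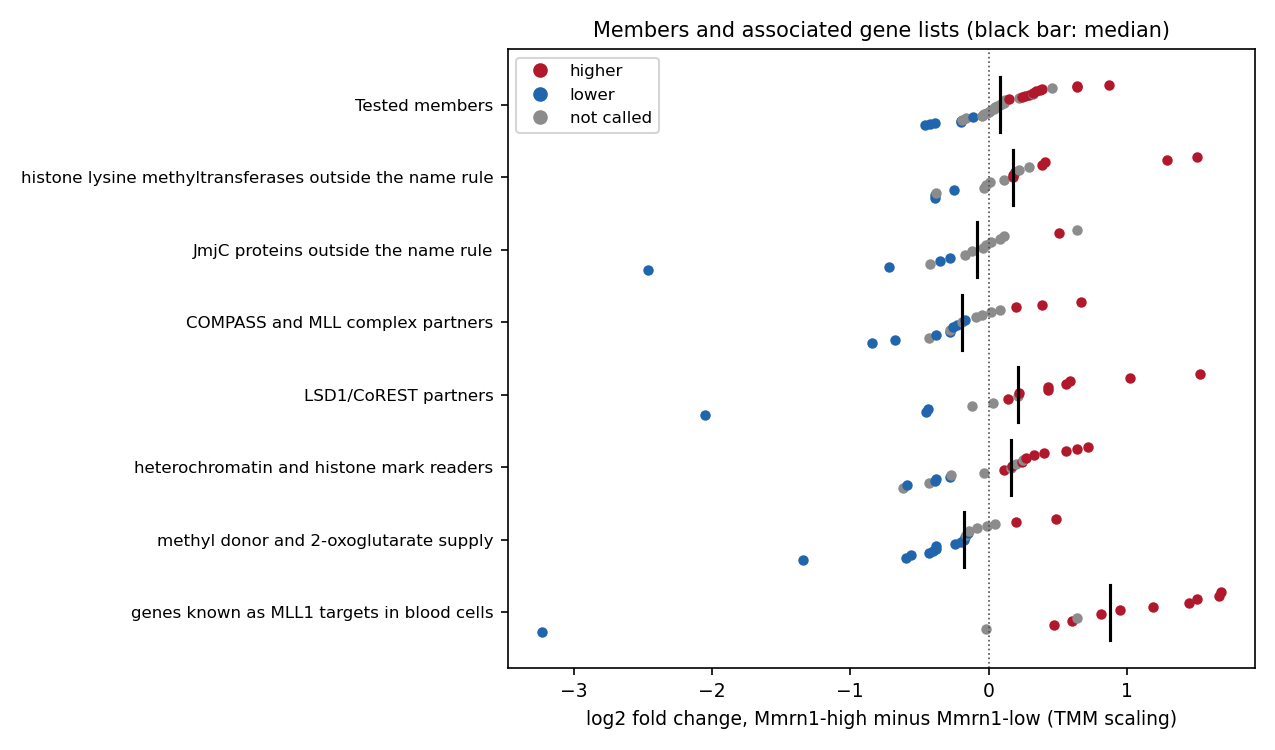
Log2 fold change (Mmrn1-high minus Mmrn1-low, TMM scaling) of the tested members and of each list of associated genes, 1 point per gene, with a black bar at the median. The members lie between -0.46 and 0.87, a narrower range than that of most lists, and the MLL1 targets have the highest median, 0.88.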

How the data were processed

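Poly-A RNA went into stranded libraries, read as pairs on an Illumina NovaSeq, per the labels' protocols. The deposited table holds raw read counts per gene and FPKM values for 6 libraries, per the file headers. CASAVA 1.8, HISAT2, StringTie and edgeR are named in the submitters' processing notes, with the build GRCm38. No strand setting for the counting is stated. The authors' FPKM carry no composition correction.

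The test was that of edgeR 4.0.16, run in R 4.3.3 on the counts (robust quasi-likelihood F test, TMM factors, filterByExpr, group as the only term), with Benjamini-Hochberg adjustment over all 15419 genes tested. The SE is the log2 fold change over the square root of F, and the 95% interval uses the t quantile. TMM factors were 1.05 to 1.06 in Mmrn1-high and 0.947 to 0.952 in Mmrn1-low libraries. A count of 3 equals 0.0971 to 0.259 CPM. The procedure was tested on simulated counts. Gene positions and exon overlap come from GENCODE M21, in which all 40 members had identical coordinates, and promoters from RefSeq (GRCm38.p6), without the 50 bases after the start. The NRF1 and NF-kappaB motifs were searched in forms 2 and 1 letters shorter than planned.

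The members, the lists, the roles and the tests were chosen with earlier results of these data known. Named genes are every member, up to 4 genes with the smallest p of each partner list, and genes in counts of 5 or fewer; some genes of the partner lists are counted but not reported by name here. Ezh1, Ezh2, Gfi1b, Fos, Mki67, Igkc, Tfrc and Lck were added after their values were seen.

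Alternatives were DESeq2 size factors (RLE), library size alone, no filter, 5 CPM in 3 libraries, DESeq2 1.42.0, voom with sample weights (limma 3.58.1), a block for the replicate number, limma-trend on log2(FPKM + 1) and log2(FPKM + 0.1) for genes reaching 1 FPKM in 3 libraries, log2(FPKM + 1) without that filter, each library left out, an adjusted p under 0.01 and a minimum log2 change of 0.5 in either direction. Python 3.11.15 with pandas 2.3.3 and matplotlib 3.10.9 made the summaries and plots.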

Additional observations from a re-analysis of the deposited data

How the results depend on the processing

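In the 16 alternative fits, 12 of the 17 called members had the same call throughout, 5 lost it or turned, and 3 of the 20 others stayed not called with the same sign in each fit that could test them. Members called higher numbered 21 with library size alone, 19 with each of the 3 FPKM settings and 3 at a minimum log2 change of 0.5. Members called lower numbered 3 with library size alone, 3 with each FPKM setting and 0 at that fold change. All genes called lower numbered 3019 with FPKM at a pseudocount of 1, 3011 at 0.1, 3020 without the FPKM filter and 2086 at the fold change minimum. The members' median log2 fold change was 0.231 with library size alone, 0.132 with the filter of 5 CPM, and 0.185, 0.204 and 0.174 with FPKM at a pseudocount of 1, at 0.1 and at 1 without a filter. With each library left out in turn, 9 to 13 members were higher and 3 to 6 lower, and the median was 0.056 to 0.121; the 3 lower stood without Mmrn1-high replicate 2. At an adjusted p under 0.01, 9 were higher and 4 lower.

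Of members not called, Kdm1a, Kdm1b, Setd2, Setd4, Kdm3b, Kdm4b and Kdm4c gained a call as higher in 4 to 8 fits each, and Kmt2e, Kmt5c (higher) and Setdb2 (lower) in 1 each. Signs turned for members near 0. With library size alone they were 0.039 for Nsd1, 0.115 for Setd1a, 0.099 for Setd1b, 0.146 for Setd3, 0.106 for Setd7 and 0.136 for Setdb1. With FPKM at a pseudocount of 1, filtered or not, they were 0.035 for Nsd1, 0.106 for Setd1a, 0.086 for Setd1b, 0.142 for Setd3, 0.099 for Setd7 and 0.125 for Setdb1, and at a pseudocount of 0.1 in the same order 0.038, 0.113, 0.099, 0.157, 0.105 and 0.135. In these settings Setd7 (adjusted p 0.0109 in edgeR with library size alone) and Setdb1 (0.0184) passed as higher. These settings carry no composition factors, and the median of all genes was 0.15 higher with library size alone. With the filter of 5 CPM, Setd1a stood at 0.017, Setd1b at 0.001, Setd3 at 0.049, Setd7 at 0.008 and Setdb1 at 0.038, and with no filter Setd3 at 0.013 and Setdb1 at 0.003. Kmt2e was -0.010 with DESeq2 and -0.001 with voom. With a library left out, ranges that crossed 0 were -0.046 to 0.159 for Kmt2b, -0.031 to 0.113 for Kmt2e, -0.003 to 0.146 for Kmt5c, -0.106 to 0.049 for Setd1a, -0.095 to 0.022 for Setd1b, -0.160 to 0.166 for Setd3, -0.150 to 0.192 for Setd6 and -0.036 to 0.021 for Setdb1. Apart from the settings without composition factors, the cause was not tested.

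Libraries with the same replicate number did not visibly deviate together (correlations 0.0426, -0.0785 and 0.0286). For differing numbers the correlations ran from -0.0927 to 0.0715. Deviations from the mean of 3 libraries cannot exclude shared mice or sorts, so whether the numbers pair the samples is not known. The replicate block gave 11 members higher and 5 lower, with edgeR adjusted p of 0.0292 for Kdm1b, now called, and 0.062 for Kdm2a and 0.06 for Nsd2, now not called, and put Setd3 at 0.007. Depth limits Setd4 most, whose lowest count in a library was 69, and 3 members had too few counts to test.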

Other observations

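In families not described above, the share of transcripts by gene, from the authors' FPKM, also differed between the groups for several members. Among the H3K36 writers, Nsd3 made up 18.8% ± 0.152 of the summed FPKM in Mmrn1-high cells and 15.7% ± 0.91 in Mmrn1-low cells (SD, n = 3), and Nsd1 38.4% ± 0.278 in Mmrn1-high cells and 41.1% ± 0.904 in Mmrn1-low cells. Kdm2a supplied 47.9% ± 1.41 of Kdm2 transcripts in Mmrn1-high cells and 39.4% ± 2.88 in Mmrn1-low cells, so that Kdm2b was the more abundant of the pair by a wider margin in Mmrn1-low cells. Kdm3a supplied 28.3% ± 0.454 of Kdm3 transcripts in Mmrn1-high cells and 24.7% ± 1.94 in Mmrn1-low cells. For these genes the libraries of the groups did not overlap. Within Kdm4, Kdm1 and Setdb the libraries overlapped for each gene, and Kdm1a made up 84.7% ± 0.856 of the LSD family in Mmrn1-high cells and 85.9% ± 0.563 in Mmrn1-low cells. Kmt2d made up 18.4% ± 2.42 of the Kmt2 and Setd1 sum in Mmrn1-high cells and 21.8% ± 0.393 in Mmrn1-low cells, with no overlap, although its own change did not pass the test. The ratio of Kmt2a to Kmt2d was 1.0 ± 0.139 in Mmrn1-high cells and 0.569 ± 0.0116 in Mmrn1-low cells, and that of Kdm7a to Kdm8 was 1.11 ± 0.124 in Mmrn1-high cells and 0.515 ± 0.0666 in Mmrn1-low cells. No test was run on these shares and ratios.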
